A study of Canis lupus familiaris with 14 samples.

Results

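Chemokines are small secreted proteins that steer leukocytes, and their receptors sit in the membrane of the cells that follow them. In a lymph node, CXCL13 draws B cells carrying CXCR5 into follicles, CCL19 and CCL21 draw cells carrying CCR7 into the T-cell zone, and CXCL12 from stromal cells holds leukocytes in place. Other members are induced by inflammation or interferon, or guide cells to skin, gut or thymus. The members were all genes whose only annotated symbol is CCL, CXCL, XCL or CX3CL with a number, or CCR, CXCR, XCR, CX3CR or ACKR with a number. The rule found 41 of the 15115 genes on the canine array, 27 of them chemokines and 14 of them receptors, of which 2 are atypical receptors that take up chemokines. All 41 carry the same symbol in RefSeq's gene table.

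RNA from fine needle aspirates of lymph nodes was measured on 14 arrays from 13 dogs, 1 array per node. The 10 lymphomas arose naturally in companion dogs of several breeds (Boxer, Beagle, Golden Retriever, Labrador Retriever, Pointer, Chesapeake Bay Retriever and mixed breeds), were sampled at 3 clinics and are labelled B-cell (RB03, RB07, RB10, RB16, NE41, NE42 and FS21) or T-cell (FS22, FS25 and NE45). The 4 normal nodes came from 3 colony Beagles, and 3024l and 3024r are different nodes of 1 dog. All lymphomas were sampled before any study drug, although FS21, FS22, FS25 and RB07 had relapsed after chemotherapy. Breed, housing, clinic and disease cannot be told apart, and an aspirate mixes tumour cells with whatever other cells the needle drew. The study's methods compared 4 B-cell lymphomas (FS21, NE42, RB03 and RB16, here the B-cell set) with normal nodes 63, 2970 and 3024r, and its sample letters divide the lymphomas into 6 arrays of class E-J (FS21, NE41, NE42, RB03, RB16 and FS22) and 4 of class K-N (RB07, RB10, FS25 and NE45). Those classes were drawn from the same expression profiles, so values by class are given as a description with no test.

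All values are MAS 5.0 signals, a brightness per probe set on 1 common scale, given as log2 and averaged over the probe sets of a gene. The median signal of an array lay between 85.5 and 131, and a gene was tested when its signal reached 100 (6.64 on the log2 scale) in at least 3 arrays of the comparison. The tests used 1 normal array per dog, with 3024r rather than 3024l as in the methods' comparison, and 3024l is given with the values. Array 3024l also stood apart, with an actin 5′ control signal of 14 where the other 13 arrays had 381 to 1036. The class of 3 lymphomas went against the label. CD3E, part of the T-cell receptor complex, was at 12.11 in RB07 and 12.54 in RB10, labelled B-cell, beside 12.48 in FS25 and 12.56 in NE45. In FS22, labelled T-cell, CD3E was at 8.80, within the 7.22 to 9.29 of the other arrays of class E-J. B-cell markers were less clear. MS4A1, the B-cell surface protein CD20, was at 4.90 in FS22 and at 12.02 to 12.50 in the other arrays of class E-J, and at 2.89, 10.40, 6.48 and 10.89 in RB07, RB10, FS25 and NE45. CD79A, a part of the B-cell receptor, was at 10.09 in FS22, within the 9.29 to 11.52 of its class, and at 8.11 or less in class K-N.

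Of the 41 members, 28 reached a signal of 100 on at least 3 of the 14 arrays, 9 did so on 1 or 2 arrays and 4 on none. The 4 were CCL1, the ligand of CCR8, CCL8, a monocyte attractant, CCL26, an eosinophil attractant, and CCL28, a chemokine of mucosal epithelium. CCL2, CCL19 and CCL21 were the members at 100 or more on all 14 arrays.

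**Figure D1:**
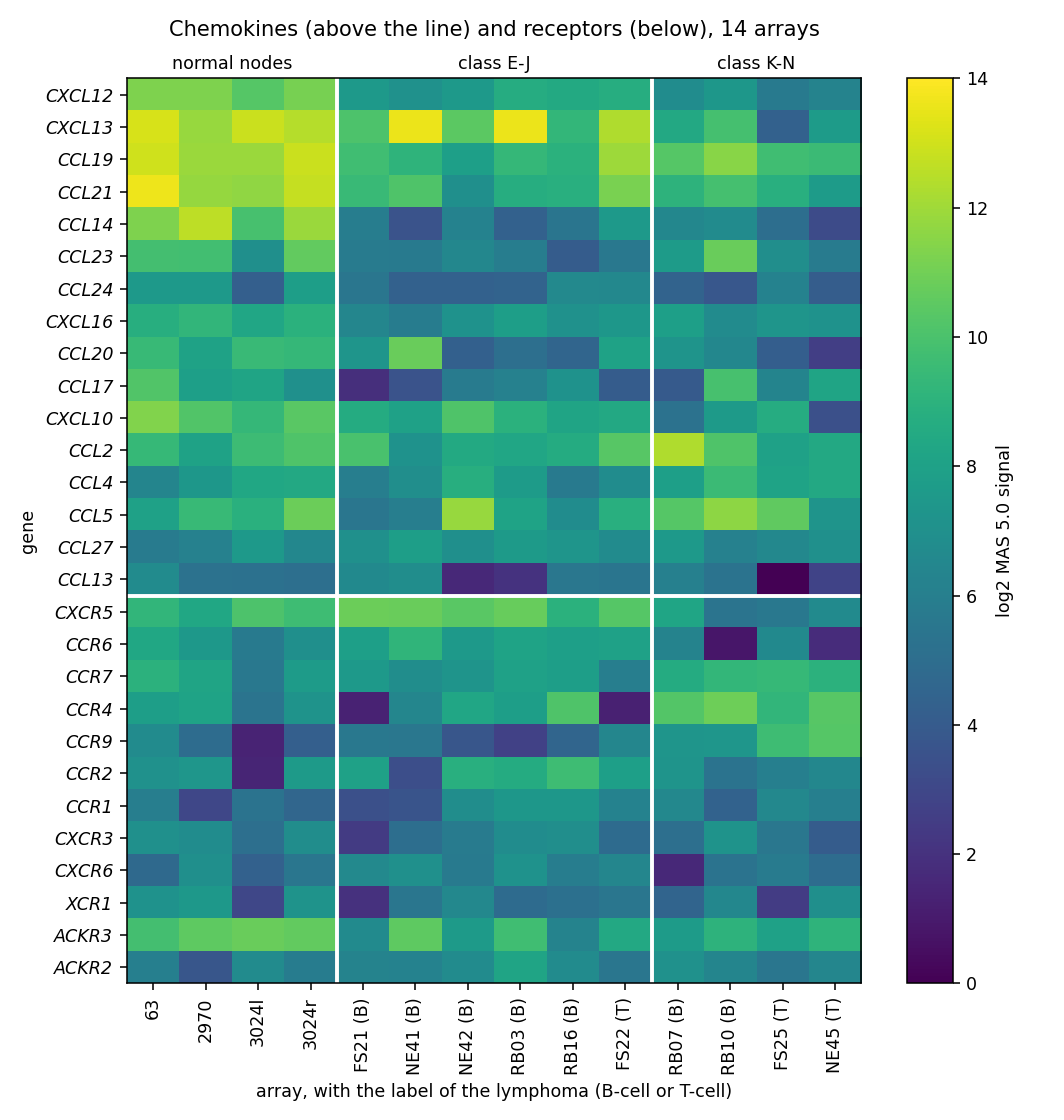
Log2 signal of the 28 members that reached 100 on at least 3 arrays (rows; chemokines above the white line, receptors below) on the 14 arrays (columns; normal nodes, class E-J, class K-N, with the label of each lymphoma in brackets). CXCL12, CCL14, CCL19 and CCL21 were bright in the normal nodes, and CCR4, CCR7 and CCR9 had their highest signals in class K-N.

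Against the 3 normal nodes, the 10 lymphomas had lower signals of 6 chemokines, namely CCL14, CXCL12, CCL21, CXCL16, CCL24 and CCL19, and no member was higher at an adjusted p under 0.05 from limma. These are the genes of lymph node stroma and vessels (CXCL12, CCL19, CCL21), of myeloid cells (CXCL16, CCL24) and a chemokine known for its abundance in plasma (CCL14). The comparison tested 9295 genes, of which 3.85% were called lower and 1.19% higher, and 28 of them were members. CCL24 passed the filter only through the normal nodes, so it had to differ to be tested, and with no filter it was not called (limma adjusted p = 0.0571). CCL19 was not called with no filter either. CCL27, ACKR2 and CCR1 passed only through the lymphomas. The median log2 difference of the 28 members was -1.49 and that of all genes tested was -0.13; over all 41 members it was -0.74 and over all 15115 genes -0.11. The same comparison for the B-cell set tested 8295 genes and 25 members, with 7.39% of all genes called lower and 3.48% higher. There, 8 members were lower (CCL14, CXCL12, CCL23, CCL19, CCL21, CXCL16, CCL20 and CCL24) and CCL27 was higher. Of these 9, CCL14, CCL23 and CCL24 passed the filter only through the normal nodes and CCL27 only through the lymphomas, so those 4 had to differ to be tested, as did XCR1, ACKR2 and CCR1, which were not called. With no filter, CCL14 (limma adjusted p = 0.0118) and CCL23 (0.0279) were still called and CCL24 (0.0975) and CCL27 (0.15) were not. Of the others, CXCL12, CCL19 and CCL21 were still called with no filter, and CXCL16 and CCL20 were not. The 2 comparisons share their normal nodes and 4 of their lymphomas, so they are not separate evidence.

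CXCL12, the stromal chemokine that ACKR3 also binds, had log2 signals of 11.27 in node 63, 11.27 in 2970, 10.29 in 3024l and 11.13 in 3024r. Class E-J ran from 7.10 to 8.71 with a median of 8.05, and RB07, RB10, FS25 and NE45 were at 6.82, 7.43, 5.69 and 6.26. Each lymphoma was thus below each normal node, 3024l included, and the spread among the 3 tested normals was small (11.22 ± 0.08, SD, n = 3, against 7.44 ± 1.02 in the lymphomas, n = 10). The log2 difference was -3.78 (SE, the standard error of the difference, 0.57, and limma adjusted p = 0.00462), a 13.8-fold lower signal. For the B-cell set it was -3.13 (SE 0.35, limma adjusted p = 0.00527).

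CCL21, which stromal and lymphatic cells make to attract CCR7-bearing cells, was at 13.65 in 63, 11.78 in 2970, 11.70 in 3024l and 12.79 in 3024r. It ran from 6.98 to 11.19 with a median of 9.15 in class E-J and was at 9.05, 9.89, 8.81 and 7.69 in RB07, RB10, FS25 and NE45. FS22 was the highest lymphoma and still lay under the lowest normal node. The log2 difference was -3.66 over the 10 lymphomas (SE 0.71, limma adjusted p = 0.0143) and -4.24 in the B-cell set (SE 0.66, limma adjusted p = 0.0143).

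CCL19, the other CCR7 ligand and the gene next to CCL21 in RefSeq's UU_Cfam_GSD_1.0 assembly, was at 12.99 in 63, 11.92 in 2970, 11.91 in 3024l and 12.87 in 3024r. Class E-J ran from 7.89 to 11.95 with a median of 9.22, and RB07, RB10, FS25 and NE45 were at 10.29, 11.51, 9.68 and 9.56. The groups overlapped here through FS22, whose 11.95 exceeded 2970 and 3024l. The log2 difference was -2.79 over the 10 lymphomas (SE 0.68, limma adjusted p = 0.0347) and -3.62 in the B-cell set, which does not hold FS22 (SE 0.48, limma adjusted p = 0.00976). The call over the 10 lymphomas was lost with no filter, when each array was centred on its median and when 3024l replaced 3024r.

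CCL14, a ligand of CCR1, had the largest log2 difference of the 28 members tested. It was at 11.30 in 63, 12.60 in 2970, 9.94 in 3024l and 11.88 in 3024r. In class E-J it ran from 3.60 to 7.51 with a median of 5.71, and in RB07, RB10, FS25 and NE45 it was at 6.47, 6.73, 5.06 and 3.18. The normal nodes lay far above every lymphoma, and 8 of the 10 lymphomas were under a signal of 100, the level set for testing. The log2 difference was -6.47 (SE 0.79, limma adjusted p = 0.0018), and -5.15 when every signal under 100 was raised to 100. Its 2 probe sets gave -6.70 and -6.25. For the B-cell set the difference was -6.43 (SE 0.51, limma adjusted p = 0.00242), and -5.22 with the raised signals.

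CCL23, another CCR1 ligand made by myeloid cells and the neighbour of CCL14 in the same assembly, divided the lymphomas. It was at 9.83, 9.76, 6.99 and 10.62 in 63, 2970, 3024l and 3024r, and at 5.82, 6.46, 5.91 and 4.09 in FS21, NE42, RB03 and RB16 of the B-cell set. RB10 stood at 10.81, above every normal node, while RB07, FS25 and NE45 were at 7.66, 6.93 and 5.82 and NE41 and FS22 at 5.73 and 5.60. Within the B-cell set, where all 4 lymphomas were under 100, the signal was at least 10.7-fold lower (log2 difference -4.50, SE 0.56, limma adjusted p = 0.00789, and 0.0279 with no filter). Over the 10 lymphomas the difference was -3.59 (SE 0.98, limma adjusted p = 0.0536). It was -4.07 without RB10 (limma adjusted p = 0.00481) and -3.72 without RB07 (limma adjusted p = 0.0462). CCL16, on the other side of CCL14, reached 100 only in RB03. CCL5, the next gene, had a log2 difference of -0.74 (SE 1.31, limma adjusted p = 0.795).

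CXCL16, a membrane-bound chemokine of macrophages and dendritic cells and the ligand of CXCR6, was at 8.76, 9.20, 8.28 and 8.96 in 63, 2970, 3024l and 3024r. It ran from 5.86 to 7.87 with a median of 7.11 in class E-J and was at 7.88, 6.76, 7.32 and 7.15 in RB07, RB10, FS25 and NE45. Each lymphoma was below each normal node, by a smaller margin than for CXCL12. The log2 difference was -1.89 (SE 0.37, limma adjusted p = 0.016), a 3.69-fold lower signal, and -1.84 in the B-cell set (SE 0.35, limma adjusted p = 0.0228). The CXCL16 call in the B-cell set was lost with no filter and when 3024l replaced 3024r. CXCR6, its receptor on effector T cells, reached 100 on 3 arrays and had a log2 difference of -0.10 (SE 0.91, limma adjusted p = 0.965).

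CCL24, an eosinophil attractant that acts through CCR3, reached 100 on 3 arrays, all of normal nodes. It was at 7.59, 7.55, 4.25 and 7.83 in 63, 2970, 3024l and 3024r, from 4.37 to 6.61 with a median of 4.96 in class E-J, and at 4.48, 3.78, 6.23 and 4.11 in RB07, RB10, FS25 and NE45. The 3 tested normals lay above all lymphomas, but 3024l fell among them. The log2 difference was -2.62 (SE 0.60, limma adjusted p = 0.0285), and the call was lost with no filter (limma adjusted p = 0.0571) and with the brighter of its 2 probe sets alone (-3.14, limma adjusted p = 0.0981). CCL26, its neighbour and also a CCR3 ligand, did not reach 100 on any array, and CCR3 did so only in RB16.

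**Figure D2:**
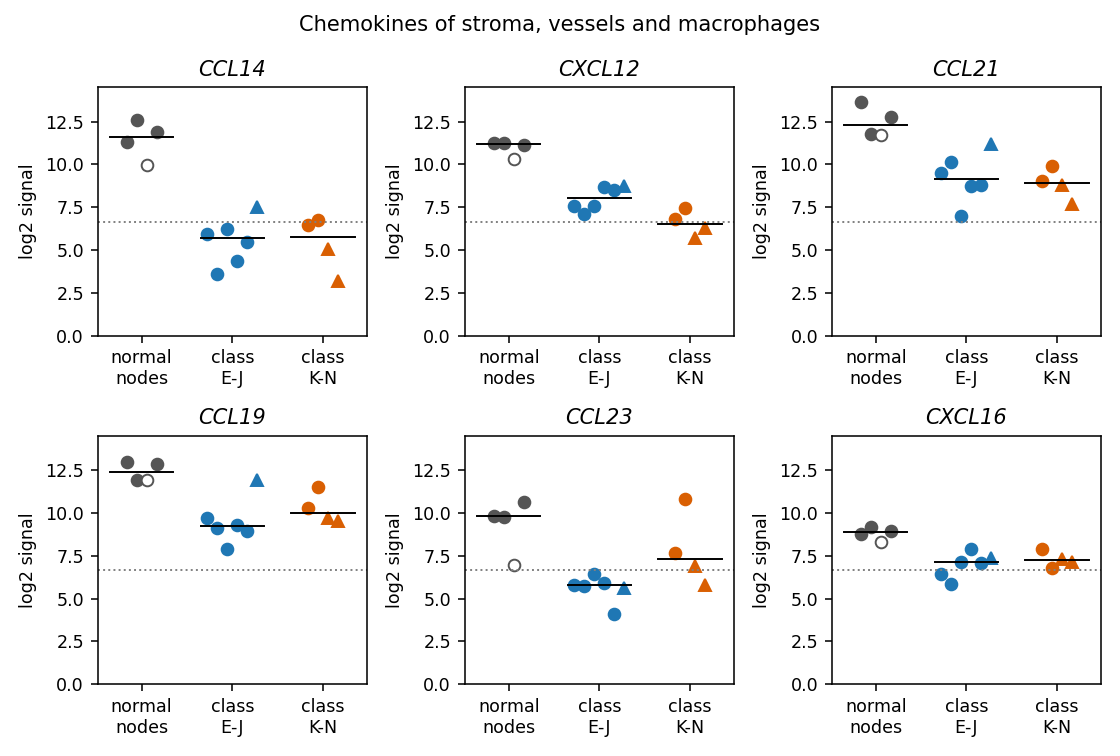
Log2 signal of 6 chemokines (vertical axis, 1 panel per gene) in normal nodes (grey; open circle, 3024l), class E-J (blue) and class K-N (orange), with circles for normal nodes and lymphomas labelled B-cell, triangles for those labelled T-cell, a black line at the median and a dotted line at a signal of 100. All lymphomas lie below the normal nodes for CCL14, CXCL12, CCL21 and CXCL16, FS22 overlaps them for CCL19, and RB10 is above them for CCL23.

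CCL20, the ligand of CCR6 that inflamed epithelium and myeloid cells release, was at 9.42, 8.04, 9.50 and 9.35 in 63, 2970, 3024l and 3024r. The B-cell set was lower, with 7.28 in FS21, 4.27 in NE42, 5.13 in RB03 and 4.57 in RB16 (log2 difference -3.62, SE 0.75, limma adjusted p = 0.0279). Leave-one-out fits aside, the call held in 7 of 13 alternatives. It was lost, among others, with no filter and with the brighter CCL20 probe set alone. NE41, which is outside that set, was at 10.78 and thus above every normal node, and FS22 was at 8.09. RB07, RB10, FS25 and NE45 were at 7.22, 6.46, 4.19 and 2.60. NE41 and FS22 overlapped the normals, and the log2 difference of the 10 lymphomas was -2.88 (SE 1.31, limma adjusted p = 0.233).

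CCL27, a chemokine best known from skin, was the member that was higher in the B-cell set. It was at 5.81 in 63, 6.16 in 2970, 7.58 in 3024l and 6.49 in 3024r, against 7.02, 6.97, 7.61 and 7.32 in FS21, NE42, RB03 and RB16. The set lay above the 3 tested normals, but 3024l was above 3 of its 4 lymphomas. With the 3 normals under 100, the signal was at least 1.5-fold higher (log2 difference 1.08, SE 0.27, limma adjusted p = 0.0471). The call was lost with no filter (limma adjusted p = 0.15) and when any 1 of the 7 arrays was left out. CCL27 lies 1 gene from CCL19, which was lower in the same comparison.

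With so few normal nodes, the calls leaned on each of them, over all genes as well as among the members. Without 63, 2970 or 3024r, the genes called in the 10 lymphomas fell from 469 to 115, 30 and 57, in that order. In the B-cell set they fell from 902 to 70, 15 and 25. Over the 10 lymphomas, CCL14 and CXCL12 were still called without 63, without 2970 or without 3024r. CCL21 was not (limma adjusted p = 0.0835, 0.0632 and 0.0807 in that order), nor were CXCL16 (0.0573, 0.129 and 0.0846) and CCL19 (0.144, 0.13 and 0.166), although their differences stayed below 0, and CCL24 was then not tested. For the B-cell set, CXCL12 was called without 63 but not without 2970 (limma adjusted p = 0.0673) or 3024r (0.0513). Leaving out NE42 or RB16 ended the call of CCL20 (limma adjusted p = 0.0526 and 0.0524), and leaving out FS21 or NE42 that of CCL24 (0.0547 and 0.0617). The methods' t-test called none of the 9 members of the B-cell set at an adjusted p under 0.05, their adjusted p lying between 0.0512 and 0.124. At 0.2, the threshold the study set for its genes, it called 12 members, those 9 among them, beside 28.5% of all genes.

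Many markers of macrophages and monocytes, endothelium and stroma were also lower. Of all genes, 3.85% were called lower in the 10 lymphomas and 7.39% in the B-cell set, where 3.48% were called higher. In the 10 lymphomas, no marker of T cells, B cells, follicular dendritic cells, neutrophils, cytotoxic and NK cells or dendritic cells was called. In the B-cell set, 3 of 7 T-cell markers were lower (CD3E, CD5 and LCK) and 1 of 5 B-cell markers was higher (MS4A1). That set was chosen in part for lacking a T-cell signature, so its T-cell markers are not independent evidence. Of 4 dendritic-cell markers tested there, 1 was higher (LAMP3) and 1 lower (FLT3). The summed linear signal of 5 dendritic-cell markers was 3546 to 6678 in the normal nodes. It was 7114 to 10412 in class E-J and 1174 to 2237 in class K-N. These markers did not move together. In the B-cell set, LAMP3 was the brightest of those tested (mean log2 13.02) and higher than in the normals (log2 difference 1.80, limma adjusted p = 0.0228). FLT3 was lower (-3.82, limma adjusted p = 0.0469), and CD83 and IRF8, not called, also lay below 0 (-1.70 and -1.16). Of 10 macrophage and monocyte markers tested, 8 were lower in the 10 lymphomas and none higher (9 in the B-cell set), and their summed linear signal was 18960 to 61156 in the 4 normal nodes and 1695 to 7190 in the lymphomas. Of 6 endothelial markers tested, 4 were lower in both comparisons, with sums of 9643 to 17612 and 1259 to 4123. Of 7 stromal markers tested, 4 were lower (5 in the B-cell set), with sums of 4049 to 5841 and 492 to 5048, the highest lymphoma being RB07. CD14 and CD68, the macrophage markers not called in the 10 lymphomas, had limma adjusted p = 0.322 and 0.667. CD163, a macrophage receptor, was under 100 on every array of class E-J, as were the stromal genes DCN, PDGFRB and PDPN. The part of these cells in the chemokine differences was not tested, and in bulk RNA fewer cells of a type and less RNA per cell cannot be told apart.

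The remaining members at 100 on at least 3 arrays were not called between the 10 lymphomas and the normals. CXCL10, an interferon-induced ligand of CXCR3, was at 11.33, 10.20, 9.31 and 10.43 in 63, 2970, 3024l and 3024r. Class E-J ran from 8.03 to 10.17 with a median of 8.51, and RB07, RB10, FS25 and NE45 were at 5.28, 7.61, 8.68 and 3.41. All lymphomas were below the 3 tested normals, but the log2 difference of -2.92 missed the threshold (SE 1.08, limma adjusted p = 0.143). CXCR3, a receptor of activated T cells, had a log2 difference of -1.52 (SE 0.79, limma adjusted p = 0.303).

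ACKR3, an atypical receptor that removes CXCL12, was at 9.83, 10.53, 10.82 and 10.62 in 63, 2970, 3024l and 3024r. It ran from 6.28 to 10.55 with a median of 8.05 in class E-J and was at 7.71, 9.03, 8.02 and 9.11 in RB07, RB10, FS25 and NE45. NE41 lay within the range of the normals and the other lymphomas below it, and the log2 difference was -2.0 (SE 0.74, limma adjusted p = 0.142). ACKR2, the atypical receptor of inflammatory CC chemokines, ran the other way (log2 difference 1.28, SE 0.56, limma adjusted p = 0.212), at 8.16 in RB03 and between 3.73 and 6.75 in the normal nodes. XCR1, a receptor of cross-presenting dendritic cells, was at 7.12, 7.47, 2.99 and 7.21 in the normal nodes 63, 2970, 3024l and 3024r and reached 100 in 1 lymphoma, NE45 (log2 difference -2.27, SE 0.91, limma adjusted p = 0.171).

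**Figure D3:**
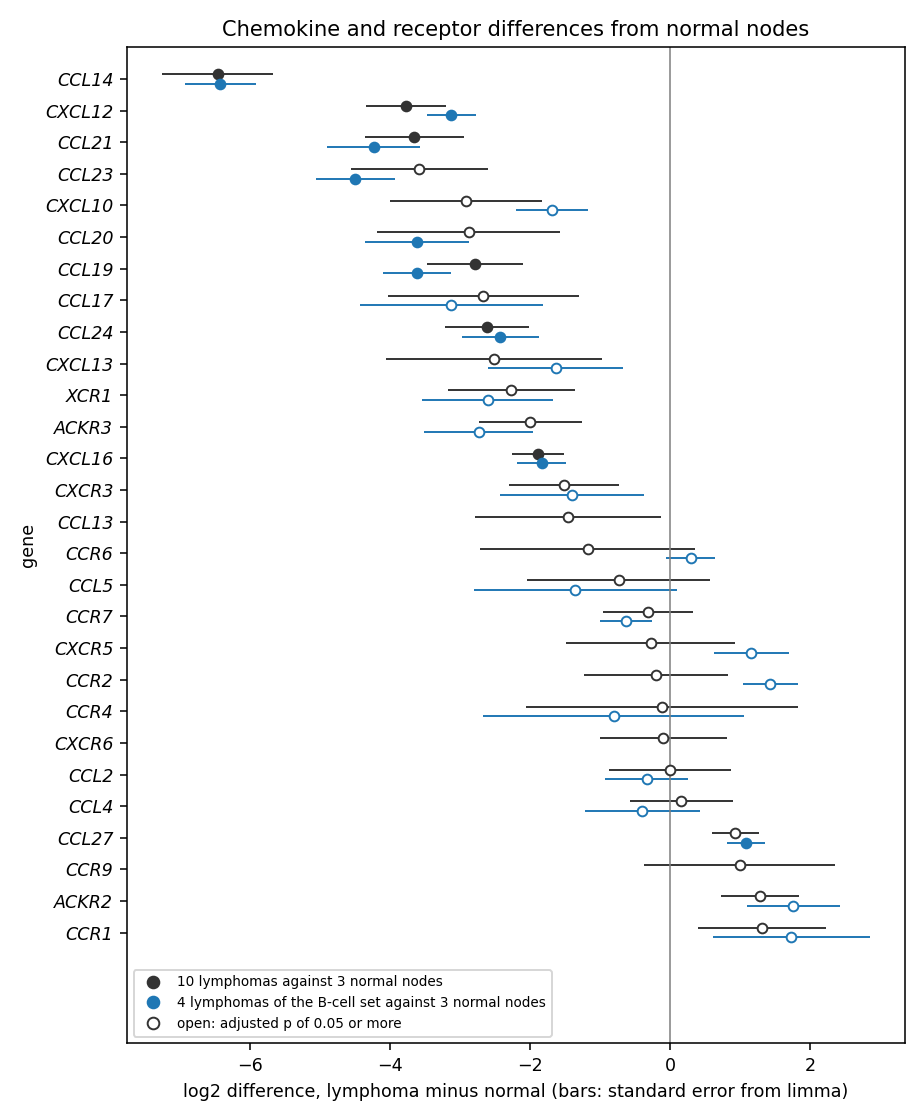
Log2 difference between lymphomas and the 3 normal nodes 63, 2970 and 3024r (horizontal axis, bars show the standard error from limma) for the tested members (rows), with 10 lymphomas in black and the 4 of the B-cell set in blue. Filled points had an adjusted p under 0.05, and they lie left of 0 except CCL27 in the B-cell set.

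CCL2, which recruits monocytes through CCR2, was at 9.36, 8.07, 9.62 and 10.13 in 63, 2970, 3024l and 3024r. RB07 stood at 12.33 where the other lymphomas ran from 7.14 to 10.39, and the group means were equal to 2 decimals (9.18 in each, SE of the difference 0.87). CXCL8, a neutrophil attractant, reached 100 on 2 arrays, RB07 at 9.33 and node 63 at 7.02. CCL7, a monocyte attractant next to CCL2 in the same assembly, also had its highest signal in RB07, at 7.36. The summed signal of 3 neutrophil markers was 9425 in RB07, 146 to 4522 in the other lymphomas and up to 19327 in normal node 2970. CSF3R, 1 of the 3, was under 100 on every array, so the sum rested on S100A8 and S100A9. The part of neutrophils in these values was not tested.

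CCL5, a T-cell and NK-cell product that attracts both, was at 8.01, 9.41, 8.86 and 10.85 in 63, 2970, 3024l and 3024r. In class E-J it ran from 5.47 in FS21 to 11.85 in NE42 with a median of 7.47, and RB07, RB10, FS25 and NE45 were at 10.32, 11.61, 10.60 and 7.26. NE42 was the brightest array in class E-J for CCL4 too, at 8.75, a related chemokine that was at 9.53 in RB10. The summed signal of 6 cytotoxic and NK-cell markers was 1935 in NE42, 146 to 841 in the other lymphomas and 874 to 1962 in the normal nodes. In RB07, RB10 and FS25, where CCL5 was also above 10, that sum was 531, 841 and 317. PRF1, 1 of the 6, was under 100 in every lymphoma, NE42 included. The part of those cells in the CCL5 signal was not tested. CCL3, another product of these cells, reached 100 in RB10 and NE45 only, and its 2 probe sets disagreed in direction between lymphomas and normals.

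CCL17, which acts through CCR4, was at 10.19, 7.90, 8.18 and 7.0 in 63, 2970, 3024l and 3024r, and from 1.86 to 7.12 with a median of 4.94 in class E-J. In class K-N it was at 9.90 in RB10 and 8.17 in NE45 but 3.95 in RB07 and 6.31 in FS25. The B-cell set had a log2 difference of -3.13 (SE 1.31, limma adjusted p = 0.159). CCL13, a further monocyte and eosinophil attractant, reached 100 on 3 arrays and had a log2 difference of -1.46 (SE 1.33, limma adjusted p = 0.57).

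**Figure D4:**
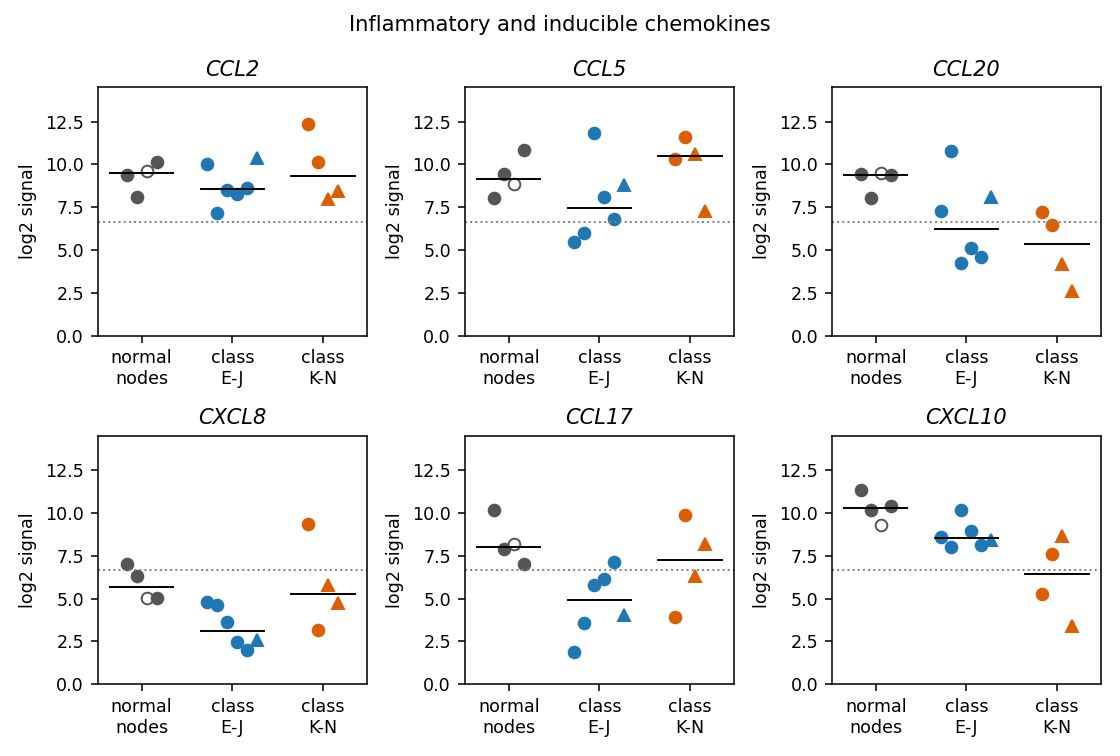
Log2 signal of 6 inflammatory or inducible chemokines (vertical axis, 1 panel per gene), with groups, symbols and lines as in the panels of CCL14 and CXCL12. Single lymphomas stand out, with CCL2 at 12.33 and CXCL8 at 9.33 in RB07, CCL20 at 10.78 in NE41 and CCL5 at 11.85 in NE42.

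Between the classes, CXCR5 and CCR6 were higher in every array of class E-J than in every array of class K-N, and CCR7 and CCR9 were lower. Of the 8567 genes at 100 in at least 3 of these 10 arrays, 6.82% were higher and 4.73% lower in class E-J without overlap, and 23 of them were members. The classes came from the same profiles, so nothing is read from these counts. The summed signal of 6 B-cell markers was 4923 to 8613 in the normal nodes, 8430 to 26501 in class E-J and 143 to 2387 in class K-N, and that of 7 T-cell markers was 13973 to 31506, 2847 to 15492 and 47625 to 63070.

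CXCR5, the receptor that takes B cells and follicular helper T cells into follicles, was at 9.24, 8.36, 10.07 and 9.64 in 63, 2970, 3024l and 3024r. It ran from 8.96 to 10.86 with a median of 10.58 in class E-J, and RB07, RB10, FS25 and NE45 were at 8.24, 5.37, 5.62 and 6.69. FS22, labelled T-cell, was at 10.29 with the rest of its class. All 4 arrays of class K-N lay under the lowest normal node. For the B-cell set the log2 difference from the normals was 1.16 (SE 0.53, limma adjusted p = 0.189).

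CXCL13, its ligand, which follicular dendritic cells make, was at 13.16, 11.84, 12.88 and 12.46 in 63, 2970, 3024l and 3024r. Class E-J was split, with 13.58 in NE41, 13.57 in RB03 and 12.32 in FS22 against 10.09 in FS21, 10.46 in NE42 and 9.26 in RB16. RB07, RB10, FS25 and NE45 were at 8.47, 9.88, 4.33 and 7.68, all under the lowest normal node. NE41 and RB03 exceeded every normal node, and the log2 difference of the 10 lymphomas was -2.52 (SE 1.54, limma adjusted p = 0.38). The follicular dendritic cell list held 1 gene on the array, CLU, which other cells also make, and its linear signal was 19749 in NE41, 22969 in RB03 and 14370 in FS22, and 8844, 8297 and 4201 in FS21, NE42 and RB16. It was 20335 in RB07, where CXCL13 was low. The part of these cells in the CXCL13 signal was not tested.

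CCR6, a receptor of B cells and some helper T cells, was at 8.35, 7.49, 5.72 and 6.97 in 63, 2970, 3024l and 3024r. It ran narrowly from 7.6 to 9.14 with a median of 7.98 in class E-J, and was under 100 in all of class K-N, at 6.24, 0.85, 6.64 and 1.78 in RB07, RB10, FS25 and NE45. CCR2, the monocyte receptor of CCL2, was at 7.09, 7.34, 1.47 and 7.64 in 63, 2970, 3024l and 3024r. Class E-J ran from 3.35 in NE41 to 9.64 in RB16 with a median of 8.33, and RB07, RB10, FS25 and NE45 were at 7.27, 5.33, 6.03 and 6.46. All 4 lymphomas of the B-cell set were above the 3 tested normals, with a log2 difference of 1.43 that missed the threshold (SE 0.39, limma adjusted p = 0.058).

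CCR7, the receptor of CCL19 and CCL21 on naive lymphocytes, was at 9.01, 8.17, 5.63 and 7.67 in 63, 2970, 3024l and 3024r. It ran from 5.99 to 8.03 with a median of 7.38 in class E-J and was at 8.60, 9.26, 9.36 and 9.0 in RB07, RB10, FS25 and NE45. Its level in class K-N overlapped that of node 63, whereas both of its ligands were lower in that class than in all 4 normal nodes. Against the normals, the log2 difference of all 10 lymphomas was -0.32 (SE 0.64, limma adjusted p = 0.822).

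CCR4, the receptor of CCL17 on skin-homing and regulatory T cells, was at 7.86, 8.11, 5.39 and 7.21 in 63, 2970, 3024l and 3024r. In class E-J it was at 1.35 in FS21 and 1.27 in FS22 but 10.13 in RB16, with a median of 7.14. RB07, RB10, FS25 and NE45 were at 10.26, 10.91, 9.21 and 10.34, above every normal node, and RB16 overlapped them. RB16 also had the highest summed T-cell marker signal of class E-J, 15492 against 2847 to 10715 in the others and 47625 to 63070 in class K-N. Single T-cell markers disagreed in RB16. CD3G was at 12.90, the highest of its class, and CD3E at 7.22, the lowest of all arrays. The part of T cells in the RB16 value was not tested.

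CCR9, the receptor of CCL25 on thymocytes and gut-homing T cells, was at 6.75, 4.96, 1.41 and 4.26 in 63, 2970, 3024l and 3024r. It ran from 2.69 to 6.44 with a median of 5.06 in class E-J, under 100 throughout. In class K-N it was at 7.30 and 7.37 in RB07 and RB10, labelled B-cell, and at 9.65 and 10.29 in FS25 and NE45, labelled T-cell. CCL25 itself reached 100 only in RB07, and its 3 probe sets disagreed. CCR8, a receptor of regulatory T cells whose ligand is CCL1, reached 100 on 2 arrays, RB07 at 8.30 and FS25 at 7.07, and was between 1.35 and 5.51 in the normal nodes.

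**Figure D5:**
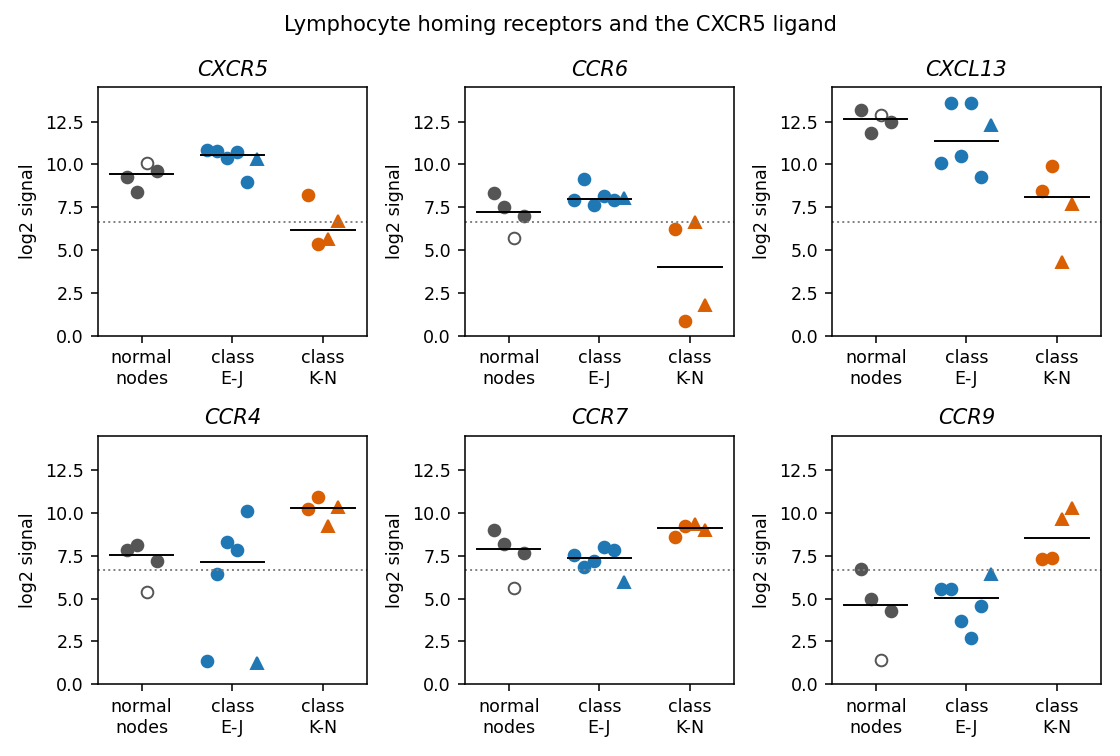
Log2 signal of 5 receptors and of CXCL13 (vertical axis, 1 panel per gene) in normal nodes (grey; open circle, 3024l), class E-J (blue) and class K-N (orange), with circles for normal nodes and lymphomas labelled B-cell, triangles for those labelled T-cell, a black line at the median and a dotted line at a signal of 100. CXCR5 and CCR6 in class K-N lie below class E-J, and CCR7 and CCR9 lie above it.

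Set beside all 4 normal nodes, class E-J was lower without overlap for CCL14, CCL21, CCL23, CXCL12 and CXCL16 and higher for no member (background 8.3% lower and 7.74% higher of 8786 genes). Class K-N was higher without overlap for CCR4 and CCR9 and lower for ACKR3, CCL14, CCL19, CCL20, CCL21, CXCL10, CXCL12, CXCL13, CXCL16 and CXCR5 (background 9.69% lower and 7.38% higher of 8536 genes). Without 3024l, the members of class E-J without overlap numbered 9, with CCL24, CXCL10 and XCR1 added to the lower ones and CCL27 higher (background 14.8% lower and 9.83% higher). Those of class K-N numbered 15, with CCL24, CCR6 and XCR1 added to the lower ones (background 16.9% lower and 9.22% higher).

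By label, the 7 B-cell and 3 T-cell lymphomas differed in no member at an adjusted p under 0.05 from limma, and no gene of the 8567 tested passed. The methods' t-test called none either, with 0 members at an unadjusted p under 0.05. By limma there were, at an unadjusted p under 0.05, 2 of 23 members, CCR9 and ACKR2, beside 3.65% of all genes. CCR9 had a log2 difference of -3.54, B-cell minus T-cell (SE 1.12, limma adjusted p = 0.956). CXCR5 had a difference of 1.80 (SE 1.30, limma adjusted p = 0.956). Without FS22, RB07 and RB10, whose class went against their label, 267 of 7867 genes passed. CXCR5 was the member among them, of 18 tested. It was 4.19 higher in the 5 B-cell than in the 2 T-cell lymphomas (SE 0.58, limma adjusted p = 0.0122). With 2 T-cell arrays left, the filter of 3 arrays barred genes bright only in T-cell lymphomas. CCR9 was therefore not tested, at 9.65 and 10.29 in FS25 and NE45 and under 100 in the 5 B-cell lymphomas. The choice of those 3 arrays rested on the same profiles, so that value is a description.

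Among the other dim members, CX3CL1, a membrane-bound chemokine of endothelium, reached 100 only in FS25, CXCL14, an epithelial chemokine, only in node 3024r, and CCL7 in 3024r and RB07. CCR1, a myeloid receptor of CCL5, CCL14 and CCL23, reached 100 in NE42, RB03 and RB16 and in no normal node (log2 difference in the B-cell set 1.73, SE 1.12, limma adjusted p = 0.332). A probe set annotated to both CXCR1 and CXCR2 fell outside the rule and reached 100 on 5 arrays, with its highest signal of 163 in RB07.

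Genes that carry the signal of chemokine receptors were compared from a separate list, of which 30 were on the array. In the 10 lymphomas 1 of 26 tested was lower and none higher, namely ARRB1, the arrestin that turns receptors off (log2 difference -1.95, SE 0.41, limma adjusted p = 0.0207), a share near the 3.85% of all genes called lower. In the B-cell set 5 of 25 were lower and none higher, beside 7.39% of all genes called lower. They were DPP4, a protease that trims chemokines (log2 difference -3.04, limma adjusted p = 0.00414), RGS1 and RGS2, which shorten G-protein signals (-2.76 and -4.15, limma adjusted p = 0.00424 and 0.0181), PIK3CG, the PI3K subunit that G proteins activate (-2.73, limma adjusted p = 0.015), and GNAI1, an inhibitory G protein subunit (-1.55, limma adjusted p = 0.0244). The medians of the list were -0.75 in the 10 lymphomas and -0.79 in the B-cell set, and those of all genes tested -0.13 and -0.06. The B-cell set was chosen in part for lacking a T-cell signature on these samples, so the lower DPP4 and RGS1, which T cells express, are not independent evidence.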

How the data were processed

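The authors amplified RNA with WT-Ovation Pico and hybridised it to GeneChip Canine Genome V2.0 arrays. The deposited signal intensities are MAS 5.0 summaries per probe set on a linear scale (the software version is not given in the sources used here), with the central part of each array averaging 500. Low signals from this summary are noisy on a log scale and array precision is limited by the number of arrays. Of 43035 probe sets, 29254 with exactly 1 symbol in the array's 2016 gene table were averaged as log2 into 15115 genes. Symbols were matched to RefSeq (UU_Cfam_GSD_1.0) for names and neighbours only.

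Groups follow the sample labels, and classes follow the sample letters of the study. Genes at 100 or more in at least 3 arrays were tested with limma 3.58.1 (lmFit and eBayes, R 4.3.3), Benjamini-Hochberg adjustment over all genes and a threshold of 0.05. Every member was named, with values per array for members called in a comparison or whose class medians differed by 2 or more on the log2 scale at 100 in 3 arrays. The p-values measure the spread between these samples only. Alternatives changed the filter, scaling, pseudocount, gene summary, test and arrays. The members, lists and tests were chosen with earlier results of these data known. Array batches were not given.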

Additional observations from a re-analysis of the deposited data

Results flagged for a closer look

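Among 28 members at 100 on at least 3 arrays, 1 array stood far from the rest of its group (Dixon's criterion) in 9 of 56 groups examined. Each member was examined in the 4 normal nodes and in the 7 lymphomas labelled B-cell, and not in the 3 labelled T-cell. For independent, normally distributed values chance gives about 1 group in 20. These groups share their arrays, and 3024l and 3024r are from 1 dog, so nothing is read from the number of flags. Of the 7 flags among the 4 normal nodes, 5 were on 3024l, the array with the low actin 5′ control. On 3024l the log2 signal was 4.25 for CCL24 (next node 7.55), 1.47 for CCR2 (next 7.09), 10.29 for CXCL12 (next 11.13), 5.14 for CXCR3 (next 6.83) and 2.99 for XCR1 (next 7.12). The other flags among normal nodes were CCL13 at 6.73 on 63 (next 5.26) and CCL20 at 8.04 on 2970 (next 9.35). Among the 7 lymphomas labelled B-cell, CCR6 was at 0.85 on RB10 (next 6.24) and CXCR6 at 1.61 on RB07 (next 5.35). Both arrays belong to class K-N, and the values under 6.64 lie under a signal of 100.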

How the results depend on the processing

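No called member changed direction under any alternative. Between the 10 lymphomas and the normals, 6 members were called, 10 with the methods' t-test (Welch), and 2 to 7 with 1 array left out. The 2 were CCL14 and CXCL12, without 63, without 2970 or without 3024r. Over all genes, the main fit called 469 of 9295, the methods' t-test 1419, and the fits with 1 array left out 30 to 623. In the B-cell set 9 were called, 4 when 3024l replaced 3024r, 5 with no filter on dim genes, and 0 by the methods' t-test at 0.05 (8 of all genes, and 12 of 25 members at an unadjusted p under 0.05; 12 members at 0.2, the study's threshold, added after seeing the data). With 1 array left out the count was 0 to 10. It was 1 without 63, and 0 without 2970 or 3024r (9 and 13 members at an unadjusted p under 0.05 from limma). Only 21 members could be tested there, since CCL14, CCL23, CCL24 and XCR1 reached 100 only in the normals. Over all genes, the main fit of the B-cell set called 902 of 8295. It called 232 of 8154 when 3024l replaced 3024r and 193 of 15115 with no filter. Without 63, 2970 or 3024r, 70, 15 and 25 of all genes were called, in that order. The cause of the other losses was not tested. By limma with no array left out, 15 of 25 members and 2487 of all 8295 genes had an unadjusted p under 0.05. That share of all genes was not counted for the t-test or with 1 array left out. At 0.2 the t-test called 28.5% of all genes. For B-cell against T-cell labels the count was 0 under every alternative but 1, leave-one-out fits included (0 to 0). The exception was the fit without FS22, RB07 and RB10, with 1 of 18 members called and CCR9 not tested. Class E-J and the normal nodes were without overlap for 5 members, and for 9 excluding 3024l, an alternative chosen after seeing the data, as were all class comparisons with normal nodes. Scaling moved the median of all genes from -0.13 to 0.00 (quantile) and 0.01 (median centring) in the first comparison and from -0.06 to 0.06 and 0.09 in the second. No paired analysis was possible because no dog belongs to more than 1 of the groups compared.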
